A study of Sus scrofa with 12 samples.

Results

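PFKFB1 and FBP1 encode enzymes that bear on the step where fructose phosphate is committed to glycolysis or returned towards glucose. FBP1 acts in the step itself, and PFKFB1 makes and breaks down a regulator of it. These 2 genes, of the 31903 gene identifiers in the expression table of Dingyuan pigs, were chosen by their measured difference between the back subcutaneous fat of the 2 backfat groups, for which the study listed both, so that difference is given as a description without a test. PFKFB1 (ENSSSCG00000024814) lies on chromosome X from 47771751 to 47859079 and FBP1 (ENSSSCG00000031174) on chromosome 10 from 27588609 to 27622225 in the RefSeq annotation of Sscrofa11.1.

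RNA was sequenced from 12 libraries of Dingyuan pigs, a native Chinese breed, all 300 days old and, per the study's methods, unmated sows kept under the same feeding, with no treatment named. Back subcutaneous fat was taken from pigs with low backfat thickness (LBF, n = 3) and high backfat thickness (HBF, n = 3), and longissimus dorsi (LD) muscle from pigs with low intramuscular fat (LIMF, n = 3) and high intramuscular fat (HIMF, n = 3). The LIMF and HIMF libraries are whole muscle and not fat isolated from it. Per the study's methods, the pigs were chosen from 1 population for extreme live backfat at similar body weight. The intramuscular fat groups were formed afterwards, from the measured fat content. Because the groups were not bred or treated to differ, any other trait that differs between these pigs cannot be told apart from fatness.

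PFKFB1 is a bifunctional enzyme: one domain makes fructose-2,6-bisphosphate from fructose 6-phosphate, and the other breaks it down. Fructose-2,6-bisphosphate activates phosphofructokinase, the enzyme that drives glycolysis forward, and inhibits fructose-1,6-bisphosphatase, the gluconeogenic enzyme that FBP1 encodes. PFKFB1 is best known from liver and skeletal muscle, whose transcripts start at different promoters, and FBP1 from liver and kidney, while the related FBP2 is the muscle form. The values used here are summed per gene and do not separate the PFKFB1 transcripts.

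Levels are given as FPKM, fragment counts scaled to transcript length and to the mapped fragments of the library. Adipocyte markers summed to between 8334 and 13922 FPKM in the fat libraries and to between 110 and 225 in the muscle libraries, so each tissue label was met. A pair of libraries stood apart in genes known from kidney tubules, a list chosen after the values were seen: the 15 markers summed to 35.6 FPKM in LBF replicate 2 against 1.03 to 4.56 in the other fat libraries, and to 49.7 FPKM in LIMF replicate 2 against 0.216 to 0.653 in the other muscle libraries. LBF replicate 3 stood apart in skeletal muscle markers, where the 11 of 14 measured markers that were above 0 in every muscle library summed to 0.891% of the mean muscle library, against at most 0.0259% in the other fat libraries. The expression table holds FPKM and no read counts, so the counts behind single values are not known and no counting error is given.

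PFKFB1 was highest in muscle and lowest in the fat of thick-backfat pigs. Its level was 8.32, 2.39 and 8.77 FPKM in the LBF libraries and 0.584, 0.346 and 0.780 FPKM in the HBF libraries. In LD muscle the LIMF libraries held 23.3, 14.2 and 26.0 FPKM, and the HIMF libraries 36.0, 46.1 and 36.3 FPKM. The order of the groups was therefore HBF, LBF, LIMF and HIMF, and no library of one group reached into its neighbour in that order. The means were 0.57 ± 0.217 FPKM in HBF, 6.49 ± 3.56 in LBF, 21.2 ± 6.20 in LIMF and 39.5 ± 5.71 in HIMF (SD, n = 3 each). The spread within a group was widest in LBF, where the highest library held 3.68 times the lowest and replicate 2 was the low one, and narrowest in HIMF at 1.28 times.

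FBP1 ran the other way between the tissues. Its level was 5.35, 10.1 and 21.6 FPKM in LBF and 4.19, 3.93 and 3.22 FPKM in HBF. The LIMF muscle libraries held 0.143, 6.53 and 0.175 FPKM, and the HIMF libraries 0.125, 0.127 and 0.292 FPKM. LIMF replicate 2 was the exception among the muscle libraries, with more FBP1 than any HBF library. The means were 12.3 ± 8.35 FPKM in LBF, 3.78 ± 0.505 in HBF, 2.28 ± 3.68 in LIMF and 0.181 ± 0.0955 in HIMF (SD, n = 3 each). The LBF and HBF libraries did not overlap, whereas the range of LIMF overlapped those of LBF and HBF through its replicate 2, and that of HIMF with or without it.

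**Figure D1:**
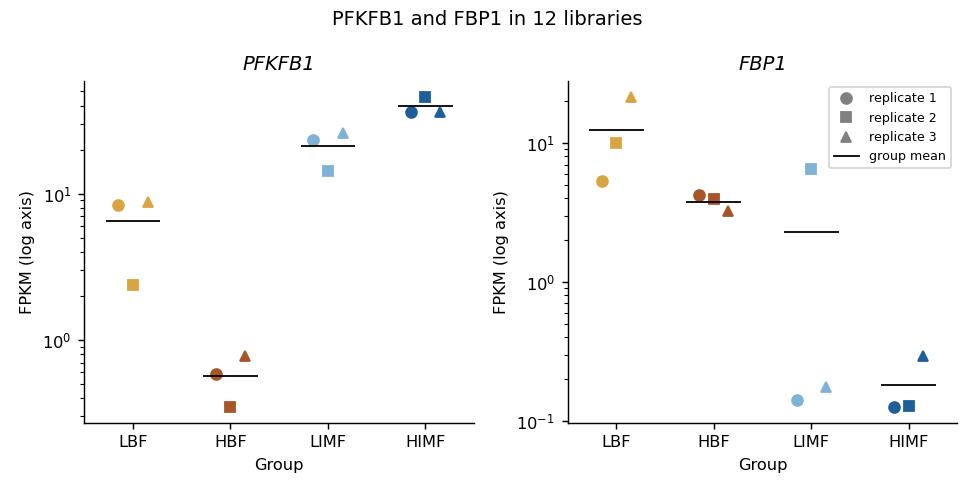
FPKM of PFKFB1 and FBP1 on a log axis in each of the 12 libraries, by group (LBF, HBF, LIMF, HIMF), with each point 1 library and each line a group mean. PFKFB1 climbs from HBF through LBF and LIMF to HIMF without overlap, and FBP1 in LIMF replicate 2 (6.53 FPKM) stands far above the other muscle libraries.

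Between the fat groups, both genes were lower in HBF. The fitted difference on the log2(FPKM + 0.1) scale, which understates changes of low genes, was -3.14 (SE 0.53) for PFKFB1, an 8.84-fold lower level in HBF, and -1.46 (SE 0.46) for FBP1, a 2.76-fold lower level. Of all 16239 genes tested in fat, 6.46% were lower in HBF without overlap between the groups and 0% passed the limits used for a call, which were an adjusted p below 0.01 together with a change of 1 or more on the log2 scale in either direction. The choice of the genes used this contrast, so nothing is read from that share. At the same limits the study's own DESeq2 comparisons called genes in both tissues, with PFKFB1 and FBP1 among those in fat. The PFKFB1 difference was -3.74 without LBF replicate 2, its low library, and the FBP1 difference was -0.95 without LBF replicate 3, its high library. Leaving out LBF replicate 2, the library with kidney markers, gave -1.50 for FBP1.

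The PFKFB1 level in fat was also set against the skeletal muscle markers of the same libraries. PFKFB1 in LBF reached 27.4%, 7.87% and 28.9% of the mean muscle library, against 1.14% to 2.57% in HBF. The same 11 muscle markers summed in these LBF libraries to 0.0259%, 0.0252% and 0.891% of the mean muscle library, and in the HBF libraries to 0.00977%, 0.014% and 0.0142%. The marker sum was thus higher in every LBF library than in every HBF library, as PFKFB1 was, and its part in the PFKFB1 difference was not tested. In LBF replicate 3, 12 of the 14 measured muscle markers had their highest fat level. Of the 11 muscle markers that passed the expression filter in fat, a partly different set, 4 were lower and 0 higher in HBF without overlap. Of all genes tested in fat, 6.46% were lower and 13.9% higher without overlap. Macrophage and leukocyte markers summed to 46.0 to 170 FPKM in LBF and to 138 to 165 in HBF. Of these 8 markers, 2 were higher in HBF without overlap, CD14 (log2 difference 0.80) and CSF1R (0.76), against 13.9% of all genes. Of 4 endothelial markers, 2 were higher in HBF without overlap, DLL4 (1.59) and SELP (1.29), against the same 13.9%. Of 8 adipocyte markers, LEP (0.96) was higher and LPL (-0.95) lower without overlap, against 13.9% and 6.46% of all genes. Among 5 stromal markers 0 were without overlap. Of 3 liver markers APOA1 (0.71) was higher in HBF without overlap, against 13.9% of all genes. The liver markers summed to 88.7 to 98.5 FPKM in LBF and 135 to 176 FPKM in HBF. The part of these markers in the PFKFB1 and FBP1 differences was not tested. In bulk tissue, fewer cells of a type and less RNA per cell cannot be told apart.

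Between the tissues, PFKFB1 was higher in muscle by 3.89 on the log2 scale (SE 0.31), a 14.8-fold difference that passed the limits (limma, adjusted p = 2.89e-07). All 6 muscle libraries lay above all 6 fat libraries, as they did for 10.4% of all genes, and the exact two-sided permutation test gave p = 0.0022, the smallest that 6 against 6 allows. Of the 15965 genes tested, 56.4% were called between the tissues, 9.29% as higher in muscle and 47.1% as lower. FBP1 was lower in muscle by a log2 difference of -3.82 (SE 0.71), or 14.1-fold, which also passed (limma, adjusted p = 0.000357), with an exact two-sided permutation p of 0.0108. Without LIMF replicate 2 the FBP1 difference was -4.60 (SE 0.32, limma adjusted p = 3.06e-07), and without both libraries rich in kidney markers it was -4.61, while PFKFB1 was at 3.72 without both. The median gene differed by -0.965 between the tissues, and by -0.155 after median-of-ratios scaling, under which PFKFB1 stood at 4.88 and FBP1 at -2.93. The labels do not say whether any pig gave both fat and muscle, so the libraries were treated as separate. The study's methods describe collecting both tissues from the slaughtered pigs, so shared pigs are possible. The p-values between tissues take the libraries as independent.

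Within muscle, PFKFB1 was at a 1.91-fold higher level in HIMF than in LIMF (log2 difference 0.93, SE 0.26). The 3 HIMF libraries lay above the 3 LIMF libraries, but the difference did not pass the limits (limma, unadjusted p = 0.00798, adjusted p = 0.549), and the exact two-sided permutation test of 3 against 3 gave p = 0.10, its smallest possible value. Without LIMF replicate 2, the lowest of the LIMF libraries for PFKFB1, the difference was 0.67 (SE 0.20, limma adjusted p = 0.74). Marker genes also moved with these groups. Of 8 adipocyte markers, ADIPOQ (log2 difference 1.90), PLIN1 (1.98) and LEP (1.71) were higher in HIMF without overlap and LPL (-1.30) lower, and the summed list was at 181 to 225 FPKM in LIMF and 110 to 173 in HIMF. Of 14 skeletal muscle markers, PRKAG3 (1.76) and CASQ1 (0.38) were higher and ANKRD2 (-2.50), XIRP1 (-2.57), LMOD2 (-1.50) and ACTN2 (-0.89) lower without overlap, and over the 11 markers above 0 in every muscle library the summed level overlapped, at 10284 to 13392 FPKM in LIMF and 11069 to 16636 in HIMF. None of these markers passed the limits in limma, and their part in the PFKFB1 and FBP1 values was not tested. Of the 14292 genes tested in muscle, 0% were called and 7.02% had an unadjusted p below 0.05. Without overlap, 7.93% of them were higher and 4.74% lower in HIMF, the shares that stand beside the marker counts above. FBP1 had a log2 difference of -1.49 (SE 1.16, limma adjusted p = 0.831; exact permutation p = 0.50) with overlapping groups. That direction rested on LIMF replicate 2: without it the difference was 0.07 (SE 0.39, limma adjusted p = 0.987). FBP1 in muscle was thus not shown to differ between the intramuscular fat groups in either direction.

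**Figure D2:**
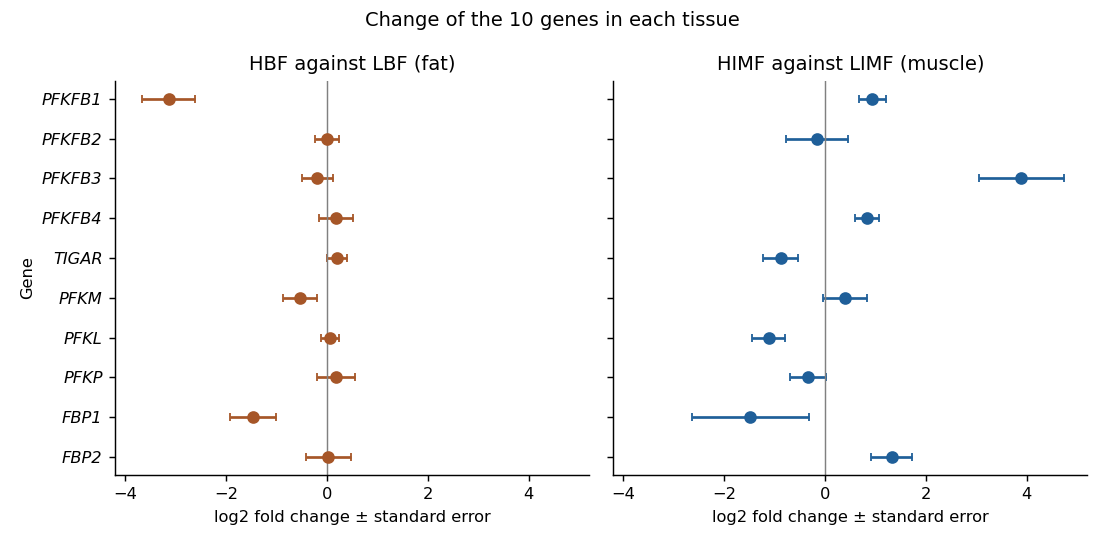
Log2 fold change on the x axis, with bars of 1 standard error, of HBF against LBF in fat (left) and HIMF against LIMF in muscle (right) for the 10 genes of the fructose bisphosphate step. PFKFB1 sits at -3.14 in fat and 0.93 in muscle, and the widest bar is that of FBP1 in muscle (-1.49, SE 1.16).

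The relatives of PFKFB1 overlapped between LBF and HBF, where PFKFB1 did not. PFKFB3, the inducible isoenzyme whose kinase activity far exceeds its phosphatase activity, was at 17.3, 36.3 and 29.7 FPKM in LBF and 31.4, 20.7 and 19.3 in HBF (log2 difference -0.19, and 0.03 without LBF replicate 2). PFKFB4 (0.18), PFKFB2 (-0.00) and TIGAR (0.19), a phosphatase that lowers fructose-2,6-bisphosphate, also overlapped between the fat groups, and the signs of PFKFB4 (-0.02 to 0.56) and PFKFB2 (-0.15 to 0.12) turned with the library left out. None of these 4 genes passed the limits in limma or had an unadjusted p below 0.05 in fat, where 13.6% of all genes had one. PFKFB1 made up 28.6%, 5.63% and 19.8% of the summed FPKM of PFKFB1 to PFKFB4 in LBF, and 1.58%, 1.38% and 3.20% in HBF. The HBF shares lay below every LBF share, whereas the PFKFB3 share overlapped, at 59.5%, 85.7% and 67.1% in LBF and 79.1% to 84.7% in HBF.

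In muscle, PFKFB1 was the leading isoenzyme in LIMF, at 76.7%, 68.6% and 55.6% of the PFKFB sum. In HIMF its share was 31.1%, 35.4% and 61.1%, although its level was higher. PFKFB3 was at 1.51, 1.43 and 7.98 FPKM in the LIMF libraries. In the HIMF libraries PFKFB3 was at 68.4, 74.8 and 12.5 FPKM, with replicate 3 the low one, and its share of the sum was 59.2%, 57.6% and 21.1%, against 4.98%, 6.90% and 17.1% in LIMF. Its log2 difference of 3.89 (SE 0.84) was large but did not pass (limma, unadjusted p = 0.00173, adjusted p = 0.475). PFKFB4 was also higher in HIMF without overlap (0.82, SE 0.24, limma adjusted p = 0.549), and TIGAR lower (-0.88, SE 0.35, limma adjusted p = 0.677), whose LIMF libraries held 17.3, 6.19 and 9.82 FPKM and HIMF libraries 5.12, 5.32 and 6.01. Of the 5 genes that make or remove fructose-2,6-bisphosphate, 3 were higher and 1 lower without overlap, against 7.93% and 4.74% of all genes, and 0 were called. Between the tissues PFKFB4 was higher in muscle (1.07, limma adjusted p = 0.000585), although the tissues overlapped and the difference was 0.98, under the limit of 1, without LBF replicate 2, and PFKFB3 was at -1.26 with an adjusted p of 0.0388, which missed the limit.

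**Figure D3:**
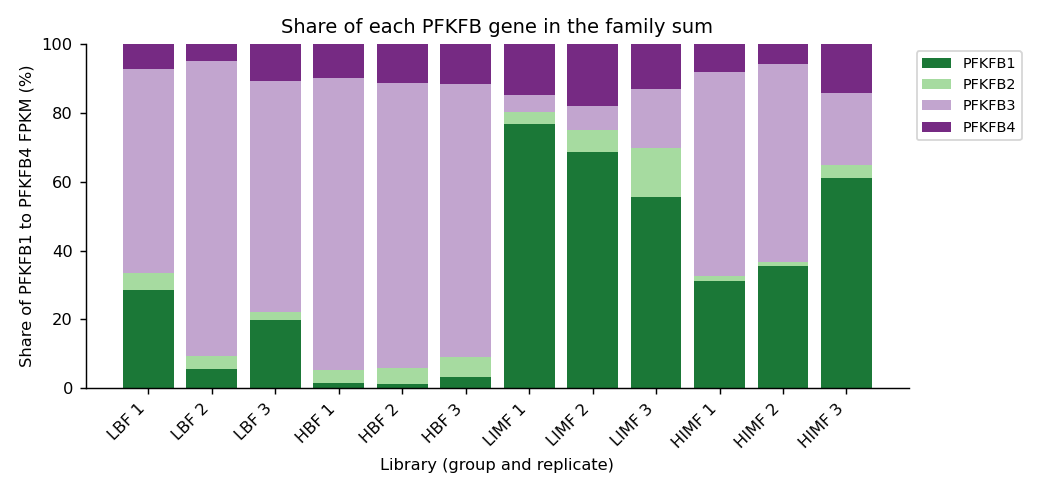
Share, in percent, of each PFKFB isoenzyme in the summed FPKM of PFKFB1 to PFKFB4 in each library, grouped as LBF, HBF, LIMF and HIMF. PFKFB1 holds 1.38% to 3.20% in HBF and 55.6% to 76.7% in LIMF.

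Phosphofructokinase, the target that fructose-2,6-bisphosphate activates, was split by tissue. PFKM, the muscle form, was at 3.86 to 9.13 FPKM in fat and 413 to 1297 in muscle (log2 difference 7.24, limma adjusted p = 8.31e-10). PFKL and PFKP, the liver and platelet forms, were lower in muscle, with log2 differences of -2.70 and -3.01 (limma adjusted p = 1.1e-07 and 9.04e-07). In fat the 3 genes overlapped between HBF and LBF. In muscle PFKL was lower in HIMF without overlap (-1.12, SE 0.33, limma adjusted p = 0.555), as its LIMF libraries held 5.36, 5.29 and 4.28 FPKM and its HIMF libraries 1.81, 1.62 and 3.70.

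FBP2, the muscle form of the enzyme that FBP1 encodes, was the more abundant of the pair in every library. It was at 29.7, 21.2 and 78.8 FPKM in LBF and 41.9, 30.6 and 40.7 in HBF, which overlapped (log2 difference 0.02, with the sign turned under both other scalings). FBP1 made up 15.3%, 32.2% and 21.5% of the FBP sum in LBF and 9.10%, 11.4% and 7.32% in HBF. In muscle FBP2 ran from 118 to 368 FPKM in LIMF and from 432 to 564 FPKM in HIMF (log2 difference 1.32, SE 0.41, limma unadjusted p = 0.0121, adjusted p = 0.594), so the groups did not overlap but the difference did not pass, and it was 0.94 without LIMF replicate 2. FBP1 held 5.25% of the FBP sum in LIMF replicate 2 and at most 0.095% in the other muscle libraries. FBP2 was higher in muscle than in fat (3.09, limma adjusted p = 3.18e-06), the reverse of FBP1.

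**Figure D4:**
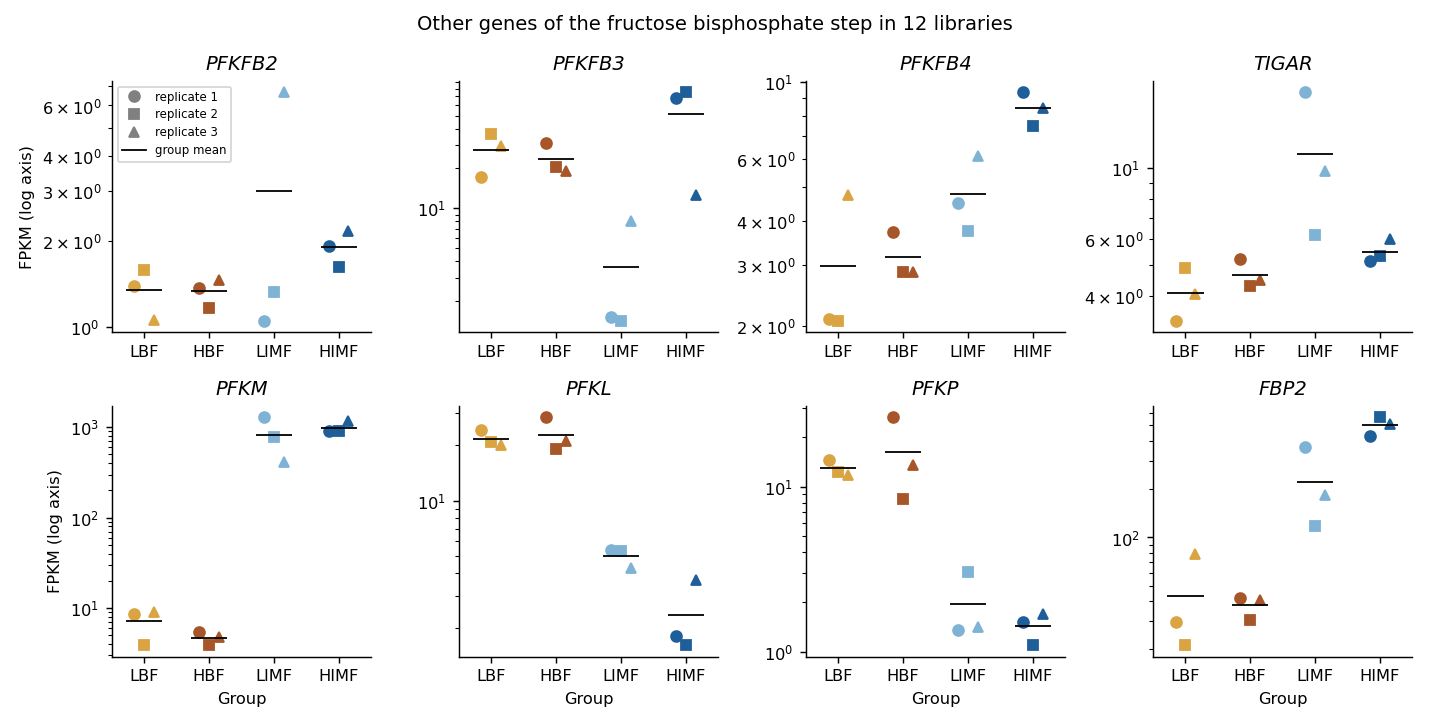
FPKM on log axes of PFKFB2, PFKFB3, PFKFB4, TIGAR, PFKM, PFKL, PFKP and FBP2 in each library by group, with each point 1 library and each line a group mean. PFKM and FBP2 sit higher in muscle, PFKL and PFKP higher in fat, and PFKFB3 in muscle ranges from 1.43 to 74.8 FPKM.

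FBP1 in LIMF replicate 2 was accompanied by other genes of kidney tubules and gluconeogenesis, named after their values were seen. Of the 15 kidney markers, 15 had their highest muscle level in that library, and 12 had their highest fat level in LBF replicate 2. PCK1, which makes phosphoenolpyruvate in gluconeogenesis, was at 36.0 FPKM in LIMF replicate 2 against at most 0.247 FPKM in the other muscle libraries. G6PC1, which releases free glucose, was at 5.64 FPKM against at most 0.128 FPKM. In LBF replicate 2 G6PC1 was at 3.54 FPKM against 0.0397 and 0.281 FPKM in the other LBF libraries, but FBP1 there, at 10.1 FPKM, lay between the other LBF libraries. The part of these transcripts in the FBP1 levels was not tested.

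**Figure D5:**
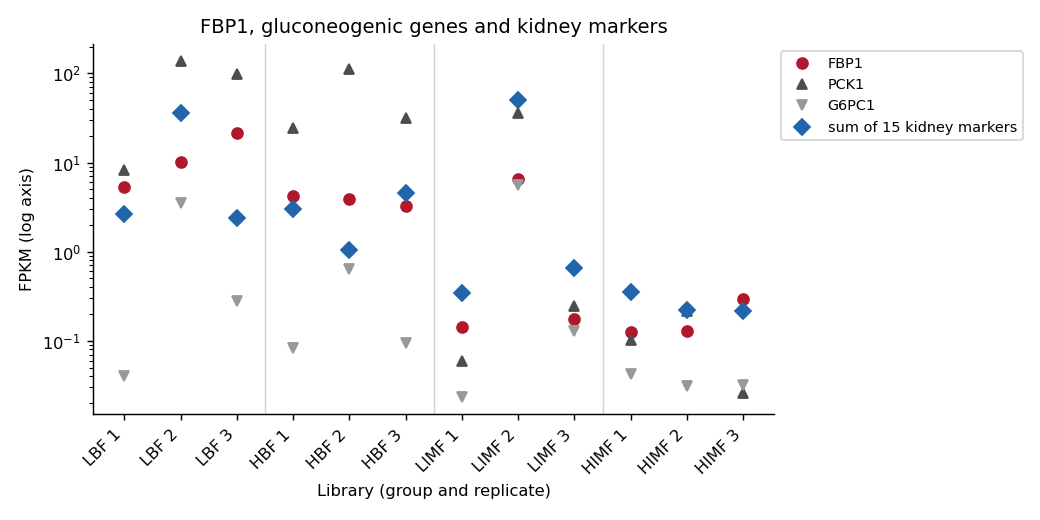
FPKM on a log axis of FBP1, PCK1, G6PC1 and the sum of 15 kidney markers in each of the 12 libraries, ordered by group. All 4 stand high in LIMF replicate 2 beside the other muscle libraries, and the marker sum and G6PC1 stand high in LBF replicate 2 beside the other fat libraries.

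The rest of the pathway was described from lists of 54 other genes of glycolysis, gluconeogenesis, the pentose phosphate pathway and lipogenic control. In fat 51 were tested and 0 called. Of these, 8 were lower and 2 higher in HBF without overlap, 15.7% and 3.92%, against 6.46% and 13.9% of all genes, and the median was -0.134 against 0.089 for all genes. The tilt of all genes towards HBF depended on scaling: of the genes with an unadjusted p below 0.05, 68.9% were higher in HBF as deposited, 49% after median-of-ratios scaling and 47.3% after quantile normalization, with medians of 0.003 and 0 for all genes. FASN, fatty acid synthase, was at 980, 333 and 581 FPKM in LBF and 65.1, 51.0 and 134 in HBF (-2.91, limma adjusted p = 0.189). TKT (-0.94) and TALDO1 (-0.62), which carry the non-oxidative pentose phosphate pathway back to fructose 6-phosphate, were lower without overlap as well, as were ME1 (-1.04), the malic enzyme that supplies NADPH for lipogenesis, and MLXIPL (-0.55), a glucose-responsive activator of lipogenic genes. PC, PCK1, PCK2 and G6PC3, the most abundant of the gluconeogenic list, overlapped between the fat groups, with log2 differences of -0.38, -0.13, -0.16 and 0.06. PC kept its sign with any 1 library left out, at -0.51 to -0.25, but the directions of PCK1, PCK2 and G6PC3 were unstable. Leaving out 1 library at a time gave -1.40 to 0.63 for PCK1, with the sign turned for 4 of the libraries. PCK2 ran from -0.53 to 0.07, with the sign turned without LBF replicate 2, and G6PC3 changed sign under both other scalings. In muscle 50 were tested, 0 called, and 9 were higher and 4 lower in HIMF without overlap, 18.0% and 8.0%, against 7.93% and 4.74% of all genes. Between the tissues 11 of 51 were called higher in muscle and 29 lower, against 9.29% and 47.1% of all genes, a split that depends on scaling. On the higher side 7 of 20 other glycolytic genes were called, among them ENO3 (10.2), the muscle enolase, and LDHA (5.01), which makes lactate, while 8 of the 20 were called lower. On the lower side were 4 of 5 gluconeogenic genes, with PC at -5.99 and PCK1 at -6.53 (-7.74 without LIMF replicate 2). Of the 9 measured genes of the pentose phosphate and fructose list 8 were called lower, with TKT at -5.89, PGD at -5.28 and TALDO1 at -3.79, whereas RPIA was at -0.19 and its sign turned under both other scalings. Of the 9 genes of glucose uptake and lipogenic control 7 were called lower, with FASN at -7.10, MLXIPL at -4.81 and ME1 at -1.55, and 1 higher, SLC2A4 (2.27), the insulin-responsive glucose transporter.

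The genes whose pattern was nearest to each member were ranked by the root mean square difference of centred log2 values, as a description. Over the 6 fat libraries FASN was nearest to PFKFB1 at 0.391, where the median gene was at 1.77, followed by ALDH1L1 at 0.656 and CA3 at 0.658. The difference between LBF and HBF that chose both members is part of their patterns over the fat libraries, so nothing is read from those ranks. Over all 12 libraries SLC22A16, PPP1R1A and MN1 were nearest to PFKFB1, at 0.856 to 0.960. FBP1 was nearest to PCK2, the mitochondrial counterpart of PCK1, at 0.687 over the 12 libraries, followed by EFNA5 and KCNK5, and to ADAMTS20, CMKLR2 and IFTAP at 0.103 to 0.267 over the fat libraries, where the median gene was at 1.01. PCK2 was at 3.06 FPKM in LIMF replicate 2 and at most 0.134 FPKM in the other muscle libraries, so that library is shared by both genes. Measured from PFKFB1, FBP1 ranked 12216th of 12668 genes over the 12 libraries, near the far end, but 156th of 12753 over the fat libraries, where both were chosen for a lower level in HBF. Measured from FBP1 over the fat libraries, PFKFB1 ranked only 10914th of 12753, at 1.21 and so farther than the median gene at 1.01.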

How the data were processed

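The authors extracted total RNA with TRIzol, sequenced it on an Illumina platform, aligned reads with HISAT2 and computed the deposited FPKM values per gene with Cufflinks 2.2.1; their own comparisons used DESeq2 1.25.9. Strand handling is not given in the sources used here. The table has 31910 rows for 31903 identifiers, and 7 identifiers on 2 rows were summed. Symbols for 15027 identifiers came from a gene name table. Values were tested as log2(FPKM + 0.1) with limma 3.58.1 in R 4.3.3 (trended empirical Bayes, Benjamini-Hochberg adjustment over all genes with a mean FPKM above 0.05), separately for fat, muscle and muscle against fat; single genes also had exact permutation tests in scipy 1.17.1. A call needed an adjusted p below 0.01 together with a log2 change of 1 or more in either direction. The code was tested on simulated data. The labels do not state that the replicates are separate pigs, so p-values measure the spread between these samples.

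Named genes were PFKFB1, FBP1, all measured genes of the first 3 pathway lists, the 4 most abundant of each other list and the 3 genes nearest to each member. G6PC1, PGAM2, LDHB and the marker genes named fall outside this rule and were chosen after their values were seen. The members and lists were chosen with earlier results of these data known, and the kidney list after the values were seen; intestine markers, also added, summed to at most 1.82 FPKM and liver markers to 88.7 to 98.5 FPKM in LBF, 135 to 176 in HBF and 3.40 to 6.85 in muscle. Of the other lists, endothelial markers summed to 131 to 269 FPKM in LBF and 248 to 391 in HBF, and stromal markers to 993 to 2872 and 675 to 1665. Exact zeros can be failed estimates. Alternatives varied the pseudocount, filter, scaling, block and libraries.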

Additional observations from a re-analysis of the deposited data

Results flagged for a closer look

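PFKFB1 had differences of opposite sign in the 2 tissues: every HBF library lay below every LBF library (log2 difference -3.14), and every HIMF library lay above every LIMF library (0.93). FASN had the same pattern, with -2.91 in fat and 0.54 in muscle. The muscle difference of PFKFB1 and both FASN differences did not pass the limits (limma adjusted p = 0.549 for PFKFB1, and 0.189 in fat and 0.707 in muscle for FASN). Whether the HBF against LBF difference and the HIMF against LIMF difference differ from each other was not tested for either gene, the groups are defined by different traits in fat and muscle, and PFKFB1 was chosen for its difference in fat.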

How the results depend on the processing

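PFKFB1 and FBP1 kept their direction in fat, where no test was made, and their direction and side of the limits within muscle and between tissues, under each alternative run, except FBP1 within muscle, which turned to 0.0742 without LIMF replicate 2 (-2.31 to 0.0742 over the left-out libraries). The FBP1 difference in fat was -0.95 without LBF replicate 3, and the PFKFB1 difference in fat was -2.11 with a pseudocount of 1. Between tissues FBP1 was at -2.22 with a pseudocount of 1 and at -2.66 after quantile normalization. PFKFB1 was at 3.18 and 4.50 under these settings. Within fat and within muscle, counts of calls moved most with single libraries: 0 to 2 in fat and 0 to 5 in muscle, against 0 with all libraries. There 2206 and 1004 genes had an unadjusted p below 0.05. With all 12 libraries in 1 fit muscle had 1 call. Between tissues, 12690 genes had an adjusted p below 0.05 with no limit on the fold change. The 9009 calls between tissues became 5864 with a pseudocount of 1. Median-of-ratios scaling changed the split of those calls from 1483 higher and 7526 lower to 3410 and 4220, and quantile normalization to 3108 and 3673. Replicate numbers showed little pairing of the libraries (correlations of deviations -0.07 to 0.17). These were 0.05 to 0.17 for LBF with LIMF and -0.07 to -0.05 for HBF with HIMF. Both libraries rich in kidney markers are replicate 2 of a low group. With the replicate as a block, 8965 genes were called between tissues, 0 in fat and 0 in muscle, and the PFKFB1 tissue difference had a limma adjusted p of 0.000831. Setting listed zeros to missing and leaving out both kidney-marker libraries were alternatives chosen after seeing the data. The cause of these shifts was not tested. With 3 libraries a group and no counts, small differences could not be resolved.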

Other observations

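LBF replicate 3 differed from the other fat libraries in several glycolytic genes, chosen after their values were seen. ENO3, the muscle enolase, was at 20.8 FPKM there and at 1.25 to 1.62 FPKM in the other 5 fat libraries. ALDOA was at 52.2 FPKM against 5.77 to 9.12 FPKM, and PGAM2 at 4.04 FPKM against 0.151 to 0.468 FPKM. LDHB, the lactate dehydrogenase subunit of heart, went the other way, at 3.57 FPKM against 56.0 to 90.6 FPKM.

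In LIMF replicate 2, GAPDH and ALDOA were listed at 0, although the other muscle libraries held 10393 to 17506 FPKM of GAPDH and 3535 to 8036 FPKM of ALDOA. With such zeros set to missing, the muscle against fat difference went from 1.11 to 3.95 for GAPDH and from 6.67 to 9.28 for ALDOA.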
